A study of Psammomys obesus with 8 samples.

Results

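Captured methylated DNA was compared across 9 imprinted genes in male fat sand rats (*Psammomys obesus*), a gerbil species that becomes obese and diabetic on rich diets, in DNA of the hypothalamus. The genes were Peg3, Mest, Plagl1, Peg10, Sgce, Nnat, Dlk1, Meg3 and Rtl1. Members were the assembled contigs whose mouse match lay at distance 0 from one of these symbols in the deposited table, which gave 41 contigs of the 548060 counted (0.00748%). Peg3 and Sgce held 10 contigs each, Mest 5, Peg10 and Meg3 4 each, Plagl1 and Dlk1 3 each, and Nnat and Rtl1 1 each. They covered 27650 bases with 837 CpG, and all of them passed the filter on low counts. A further 36 contigs had one of these genes as their nearest gene but lay outside it.

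Imprinted genes are transcribed mainly from the copy inherited from one parent, and the choice is kept by DNA methylation laid down in the egg or the sperm. In mouse, the control regions of Peg3, Mest, Plagl1, Peg10 with Sgce, and Nnat are methylated on the maternal copy, so that the paternal copy is transcribed. In the Dlk1-Meg3 domain the control region is methylated on the paternal copy. Dlk1 and Rtl1 are transcribed from the paternal chromosome there, and the long noncoding RNA Meg3 from the maternal one. Several of these genes act on fetal growth, fat tissue and feeding in mouse, and the hypothalamus is among the tissues where Peg3, Nnat, Dlk1 and Meg3 are known to be transcribed.

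The 8 libraries came from male offspring aged 16 weeks. The 4 standard-low libraries carry the diet label Standard Lipid and the 4 low-low libraries the diet label Low lipid. The series describes the contrast as one of fathers' diets, while its title speaks of parental diet, and the labels do not say which word of a group name is whose diet. MethylMiner, which uses the methyl-CpG binding domain of MBD2 to pull down methylated double-stranded DNA, was applied to genomic DNA, and the captured fragments were sequenced.

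Totals over the listed contigs ran from 11646180 to 12156525 counts in standard-low and from 12528388 to 13533441 in low-low. Counts are given below as CPM, reads per 1000000 of a library's total after TMM scaling. Same-group libraries differed by more than counting noise alone, with a chi-square per degree of freedom over gene sums of up to 4.27, between standard-low 2 and 3. These 2 libraries also held the lowest and the highest share of counts in contigs with at least 4 CpG per 100 bases, 4.08% in standard-low 2 and 5.24% in standard-low 3. The other 2 standard-low libraries held 4.54% and 4.24%, and the low-low libraries between 4.61% and 5.16%. The member results are therefore also given without these 2 libraries. The labels number libraries within a group without stating that each came from a separate animal or litter, and p-values then speak only for the spread among these 8 samples, part of which may be technical. Captured reads depend on methylation and also on how much of a sequence was present. Input libraries were not used here, the parental copies were not told apart, and in whole hypothalamus a change in cell types and a change within cells cannot be told apart.

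The sequences below are stretches of sand rat contigs read from the deposited table and printed 5′ to 3′ as deposited. Each was chosen because a result turns on it. The positions are those of the mouse match in the table, of a mouse build not given in the sources used here, and the strand is that of the match. The Peg3 control region of mouse is known for a cluster of binding sites of the zinc finger protein YY1, and 2 contigs of Peg3 held more than 1 copy of the core GCCATNTT, counted on both strands. Capitals mark those copies. The first contig matched chr7:6727773-6727997 on the minus strand, and its bases 50 to 349 hold 2 of its 3 copies. The second matched chr7:6728230-6728666 on the plus strand, and its bases 65 to 364 hold both of its copies.
Peg3 contig 3666871: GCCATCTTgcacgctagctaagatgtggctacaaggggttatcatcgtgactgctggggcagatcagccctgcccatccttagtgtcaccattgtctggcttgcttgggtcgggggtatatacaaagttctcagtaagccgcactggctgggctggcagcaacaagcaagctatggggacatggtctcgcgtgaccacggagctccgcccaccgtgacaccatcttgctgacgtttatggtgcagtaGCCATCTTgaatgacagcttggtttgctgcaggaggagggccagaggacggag
Peg3 contig 1912584: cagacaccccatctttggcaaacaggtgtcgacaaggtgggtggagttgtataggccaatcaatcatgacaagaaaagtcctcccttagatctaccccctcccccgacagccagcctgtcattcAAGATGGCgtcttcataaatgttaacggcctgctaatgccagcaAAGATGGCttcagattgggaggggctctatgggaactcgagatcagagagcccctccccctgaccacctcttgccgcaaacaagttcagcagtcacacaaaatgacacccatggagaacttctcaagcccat

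Capture per CpG was low for their CpG density in the contigs of Plagl1 and Meg3 that follow, and in others named further on, where capitals mark each CpG. The Plagl1 contig matched chr10:13091376-13092511 on the minus strand, and bases 433 to 732 hold 14 of its 41 CpG. The Meg3 contig matched chr12:109542246-109543181 on the plus strand, and a stretch of 300 bases ending at base 803 holds 17 of its 34 CpG.
Plagl1 contig 1033214: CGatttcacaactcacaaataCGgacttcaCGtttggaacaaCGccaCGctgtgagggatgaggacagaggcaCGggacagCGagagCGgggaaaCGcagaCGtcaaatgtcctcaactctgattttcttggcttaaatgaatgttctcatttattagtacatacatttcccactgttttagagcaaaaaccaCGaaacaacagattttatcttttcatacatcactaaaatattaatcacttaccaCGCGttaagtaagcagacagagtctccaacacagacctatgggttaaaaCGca
Meg3 contig 2316362: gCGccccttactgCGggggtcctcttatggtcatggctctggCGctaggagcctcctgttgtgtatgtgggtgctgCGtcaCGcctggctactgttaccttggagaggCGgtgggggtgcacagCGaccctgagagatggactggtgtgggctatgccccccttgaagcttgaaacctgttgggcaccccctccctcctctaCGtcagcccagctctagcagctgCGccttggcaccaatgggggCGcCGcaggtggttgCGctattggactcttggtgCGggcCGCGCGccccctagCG

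The contigs with the lowest unadjusted p in Peg10, Sgce and Dlk1 are shown with their CpG in capitals. They matched chr6:4759217-4759522 on the minus strand, chr6:4693597-4694300 on the plus strand and chr12:109460760-109460970 on the plus strand. The stretches hold 6 of 6, 8 of 16 and 6 of 6 CpG.
Peg10 contig 4221429: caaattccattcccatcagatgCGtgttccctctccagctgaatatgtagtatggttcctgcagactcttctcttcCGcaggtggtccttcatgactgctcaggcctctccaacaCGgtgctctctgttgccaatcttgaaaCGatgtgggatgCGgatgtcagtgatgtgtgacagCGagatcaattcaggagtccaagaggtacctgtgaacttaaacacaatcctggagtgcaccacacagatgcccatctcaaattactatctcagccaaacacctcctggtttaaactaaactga
Sgce contig 524506: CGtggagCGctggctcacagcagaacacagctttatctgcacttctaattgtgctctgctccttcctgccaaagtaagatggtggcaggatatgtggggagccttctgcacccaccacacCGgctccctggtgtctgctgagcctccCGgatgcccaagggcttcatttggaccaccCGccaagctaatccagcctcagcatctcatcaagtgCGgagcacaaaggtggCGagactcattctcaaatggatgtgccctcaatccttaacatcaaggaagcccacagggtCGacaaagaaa
Dlk1 contig 3369209: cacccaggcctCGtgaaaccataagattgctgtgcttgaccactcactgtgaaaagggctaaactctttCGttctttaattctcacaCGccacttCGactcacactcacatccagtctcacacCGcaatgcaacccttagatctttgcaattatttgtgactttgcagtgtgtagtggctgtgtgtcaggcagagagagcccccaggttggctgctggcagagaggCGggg

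For none of the 9 genes did captured DNA, summed over the gene's contigs, differ between standard-low and low-low offspring by more than the spread between libraries. In the edgeR quasi-likelihood test over all 18910 gene symbols with Benjamini-Hochberg adjustment, 0 of the 9 passed an adjusted p of 0.05, and 0 had an unadjusted p below 0.05. DESeq2 and limma voom also called 0 of the 9, with 0 at an unadjusted p below 0.05. Over all gene sums 0.00529% were called, a single gene that was lower in standard-low, and 6.03% had an unadjusted p below 0.05, 1.7% higher and 4.33% lower. Of the 9 sums 5 had a log2 fold change below 0, against 58.7% of all gene sums. The groups overlapped in all 9 genes. All 41 contigs together summed to 97.3, 113, 95.5 and 89.4 CPM in standard-low libraries 1 to 4, against 98.3, 98.3, 94.6 and 102 CPM in low-low libraries 1 to 4. The means were 98.8 ± 10.1 CPM in standard-low and 98.2 ± 2.81 CPM in low-low (SD, n = 4 each), and standard-low 2 lay above every other library.

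The precision of these sums bounds the fold changes compatible with the counts of each gene. The intervals are not adjusted for the number of sums tested, so they do not give the smallest fold that could have been called. The 95% intervals of the fold change, standard-low over low-low, lay between 0.784 and 1.38 for the 8 genes other than Nnat. For Nnat, the gene with the fewest counts, the interval ran from 0.565 to 1.27. Without standard-low 2 and 3, the log2 fold changes of the sums were 0.09 for Peg3, -0.26 for Mest, 0.09 for Plagl1, -0.11 for Peg10 and -0.1 for Sgce. They were -0.36 for Nnat, -0.08 for Dlk1, -0.17 for Meg3 and -0.08 for Rtl1, and edgeR called none of them. Fold changes here are of captured reads and have no fixed relation to a change in percent methylation.

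**Figure D1:**
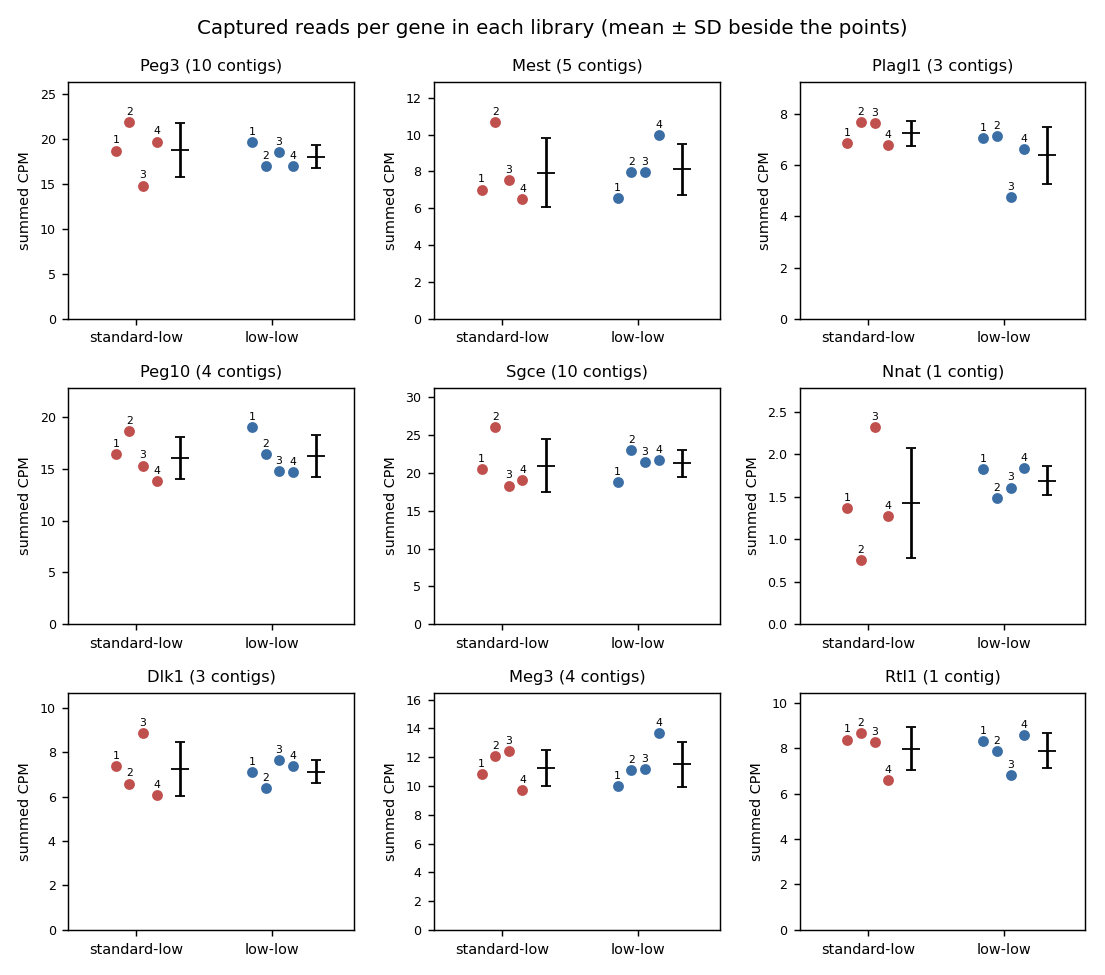
Summed CPM of each of the 9 genes in each library, with the 4 standard-low libraries at the left and the 4 low-low libraries at the right of each panel, numbered by replicate, and the mean ± SD beside them. The groups overlap in every panel, with means of 18.8 and 18.0 CPM for Peg3 and of 20.9 and 21.2 CPM for Sgce in standard-low and low-low.

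Peg3 encodes a zinc finger protein known in mouse for effects on growth and maternal care. It summed to 18.7, 21.9, 14.8 and 19.7 CPM in standard-low, against 19.6, 17.0, 18.5 and 17.0 CPM in low-low. Standard-low 2 was the highest and standard-low 3 the lowest of the 8 libraries. The log2 fold change was 0.06 ± 0.106 (SE), with a 95% interval of -0.16 to 0.28 and an edgeR adjusted p of 0.938. Its 10 contigs lay in 2 groups along the mouse match, 8 between positions 6707539 and 6717215 of chromosome 7 and the 2 with YY1 cores near the upper edge of the gene.

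The most abundant Peg3 contig, 445091 at chr7:6710358-6711381, had 5.48, 6.75, 3.73 and 4.65 CPM in standard-low, against 5.19, 4.61, 6.02 and 4.3 CPM in low-low. The ranges overlapped, and the log2 fold change was 0.04 ± 0.169 (SE; edgeR adjusted p = 0.994). Contig 4108974 at chr7:6708414-6708983 had the lowest p of the gene. It had 1.8, 1.94, 1.66 and 2.11 CPM in standard-low, against 1.6, 0.743, 1.12 and 1.31 CPM in low-low. All 4 standard-low libraries lay above all 4 low-low libraries, by a narrow margin between standard-low 3 and low-low 1. A log2 fold change of 0.65 ± 0.271 (SE; unadjusted p = 0.0188) did not pass after adjustment in edgeR (adjusted p = 0.832).

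The 2 Peg3 contigs with YY1 cores lay 2424 to 2648 and 1755 to 2191 bases inside the upper edge of the gene. Contig 3666871 had 2.31, 2.02, 1.57 and 2.03 CPM in standard-low, against 2.52, 1.49, 1.85 and 1.84 CPM in low-low. Contig 1912584 had 0.685, 1.18, 0.912 and 0.76 CPM in standard-low, against 0.917, 1.11, 0.963 and 0.845 CPM in low-low. Neither showed a difference beyond the spread between libraries, with log2 fold changes of 0.04 ± 0.24 and -0.12 ± 0.337 (SE; edgeR adjusted p = 0.994 and 0.988). Contig 3666871 was the only member with 3 YY1 cores. Of all contigs 0.0367% held 3 or more, and of the 97359 contigs of at least 400 and under 500 bases, the length class of both, 0.0175%. At least 2 cores were found in 0.58% of all contigs and in 0.384% of that length class. At least 1 core was found in 4 of the 41 members (9.76%) and in 9.12% of all contigs.

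Mest encodes a protein of the alpha/beta hydrolase fold whose transcript level follows fat cell size in mouse. It summed to 7.02, 10.7, 7.54 and 6.51 CPM in standard-low, against 6.57, 7.95, 7.95 and 9.98 CPM in low-low. For the sum, the log2 fold change was -0.03 ± 0.155 (SE; edgeR adjusted p = 0.981). Its contigs went both ways, with log2 fold changes between -0.43 and 0.42, and the lowest unadjusted p among them was 0.211.

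The most abundant Mest contig, 750185 at chr6:30742704-30743288, had 2.57, 3.63, 2.15 and 2.28 CPM in standard-low, against 2.52, 3.42, 2.89 and 3.84 CPM in low-low (log2 fold change -0.25 ± 0.205, SE; edgeR adjusted p = 0.938). Contig 589379 at chr6:30742472-30742603, with the lowest p, had 0.942, 1.35, 1.41 and 0.845 CPM in standard-low, against 0.382, 1.11, 0.803 and 1.08 CPM in low-low. The groups overlapped in both, and for contig 589379 the log2 fold change was 0.42 ± 0.337 (SE; edgeR adjusted p = 0.937). Contigs 4036377, 589379 and 319779 matched mouse over only 27.2%, 27.5% and 12.6% of their bases, so their placement in Mest is less certain.

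Plagl1 encodes a zinc finger transcription factor known in mouse to control other imprinted genes. It had the largest positive log2 fold change of the 9 sums, 0.18 ± 0.138 (SE), with a 95% interval of -0.11 to 0.46 and an edgeR adjusted p of 0.835. It summed to 6.85, 7.68, 7.63 and 6.76 CPM in standard-low, against 7.03, 7.13, 4.74 and 6.6 CPM in low-low. Low-low 3 stood below the other 7 libraries, and the 4 standard-low values overlapped those of low-low 1 and 2. Without low-low 3 the log2 fold change of the sum was 0.06 (unadjusted p = 0.637, edgeR adjusted p = 0.983).

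Its most abundant contig was also the one with the lowest p, contig 1309052 at chr10:13127150-13127752. It had 3.6, 3.63, 4.23 and 3.72 CPM in standard-low, against 3.36, 3.34, 1.93 and 2.84 CPM in low-low. The groups did not overlap, but the log2 fold change of 0.40 ± 0.192 (SE; unadjusted p = 0.0419) did not pass after adjustment in edgeR (adjusted p = 0.871). Contig 1033214, which lay 685 to 1820 bases inside the lower edge of the gene, had 2.14, 2.62, 2.49 and 2.53 CPM in standard-low, against 3.21, 2.9, 2.25 and 2.92 CPM in low-low. It overlapped between groups (log2 fold change -0.21 ± 0.208, SE; edgeR adjusted p = 0.952).

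Peg10 and Sgce are neighbours that share a control region at their divergent starts in mouse. Peg10 derives from a retrotransposon and is needed for the placenta, and Sgce encodes epsilon-sarcoglycan, a membrane protein whose loss from the paternal copy causes a movement disorder in humans. The contigs did not cover the divergent starts. The last Sgce contig ended at position 4733823 of chromosome 6 and the first Peg10 contig began at 4754534, with no flanking contig of either gene between them.

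Peg10 summed to 16.4, 18.6, 15.3 and 13.8 CPM in standard-low, against 19.0, 16.4, 14.8 and 14.7 CPM in low-low. The ranges overlapped, and the log2 fold change was -0.02 ± 0.108 (SE; edgeR adjusted p = 0.982). Contig 4653381 at chr6:4756328-4757141 was the most abundant of all 41, with 8.39, 10.5, 8.45 and 8.28 CPM in standard-low and 12.3, 9.58, 9.55 and 8.6 CPM in low-low. Its group means differed by less than the spread of low-low, and the log2 fold change was -0.17 ± 0.141 (SE; edgeR adjusted p = 0.939).

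Contig 4221429 of Peg10, printed above, had the largest log2 fold change of the 41 contigs. It had 1.8, 0.928, 1.49 and 1.18 CPM in standard-low, against 0.917, 0.743, 0.562 and 0.768 CPM in low-low. The groups did not overlap, although standard-low 2 and low-low 1 lay close together. These values rest on 21, 11, 18 and 14 counts in standard-low and on 12, 10, 7 and 10 counts in low-low. A log2 fold change of 0.84 ± 0.327 (SE; unadjusted p = 0.0118) did not pass after adjustment in edgeR (adjusted p = 0.81).

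Sgce had the largest sum of the 9 genes, with 20.5, 26.0, 18.3 and 19.0 CPM in standard-low and 18.8, 23.0, 21.4 and 21.7 CPM in low-low. Standard-low 2 was the highest library and standard-low 3 the lowest, as in Peg3. The sum gave a log2 fold change of -0.02 ± 0.103 (SE; edgeR adjusted p = 0.983). Among the 6408 genes with mean sums within 2-fold of it, the 3 whose log2 CPM followed that of Sgce most closely over the 8 libraries were Klhl32, Trim68 and Gm15581. Their root mean square differences were 0.0601, 0.0618 and 0.0722, against a median of 0.217 over the compared genes. In all 3, standard-low 2 was the highest of the 8 libraries, in Trim68 only by 17.6 to 17.5 CPM in low-low 2. The 3 were chosen for following Sgce, so sharing its highest library is no separate evidence.

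Contig 524506 of Sgce had the lowest p of all 41 contigs. It had 1.97, 3.46, 1.99 and 1.61 CPM in standard-low, against 1.15, 1.78, 1.28 and 1.15 CPM in low-low. Standard-low 4 lay below low-low 2, so the groups overlapped, and standard-low 2 stood far above the rest. A log2 fold change of 0.74 ± 0.259 (SE; unadjusted p = 0.00525) did not pass after adjustment in edgeR (adjusted p = 0.756).

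The most abundant Sgce contig, 1490447 at chr6:4733744-4733823, went the other way without overlap. It had 4.79, 4.72, 4.72 and 4.22 CPM in standard-low, against 5.96, 5.57, 5.3 and 5.61 CPM in low-low. The log2 fold change was -0.28 ± 0.161 (SE; unadjusted p = 0.0839, edgeR adjusted p = 0.895). Only 80 of its 1007 bases aligned to mouse, the shortest match among the members. Contig 2956571, at chr6:4691305-4691737, had one of the 3 highest ratios of observed to expected CpG, 0.716. It had 1.03, 1.35, 1.57 and 1.52 CPM in standard-low, against 0.688, 1.71, 1.44 and 1.69 CPM in low-low, with a log2 fold change of -0.01 ± 0.287 (SE; edgeR adjusted p = 0.998).

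Nnat encodes neuronatin, a small membrane protein of the endoplasmic reticulum with high transcription in developing brain. Its 1 contig was the most CpG-dense of the 41, with 35 CpG in 583 bases and a ratio of observed to expected CpG of 0.817. It had 1.37, 0.759, 2.32 and 1.27 CPM in standard-low, against 1.83, 1.49, 1.61 and 1.84 CPM in low-low. Standard-low held both the lowest and the highest library, and 3 of its 4 values lay below all of low-low. For Nnat the log2 fold change was -0.24 ± 0.282 (SE), with a 95% interval of -0.82 to 0.35 and an edgeR adjusted p of 0.891.

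The lowest and the highest Nnat value stood in standard-low 2 and standard-low 3, the libraries with the lowest and the highest share of counts in CpG-rich contigs. With that share as a covariate, chosen after seeing the data, the log2 fold change of Nnat was 0.09, and without standard-low 2 and 3 it was -0.36. Without standard-low 3 alone it was -0.58 (unadjusted p = 0.0551, edgeR adjusted p = 0.35), and without standard-low 2 alone it was -0.03 (unadjusted p = 0.914, edgeR adjusted p = 0.997). Blcap, the gene whose intron contains Nnat in mouse, summed to 4.88, 2.36, 4.14 and 3.21 CPM in standard-low, against 4.43, 3.71, 4.25 and 3.07 CPM in low-low. Standard-low 2 was again the lowest library. The log2 fold change of Blcap was -0.08 ± 0.199 (SE; edgeR adjusted p = 0.954).

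**Figure D2:**
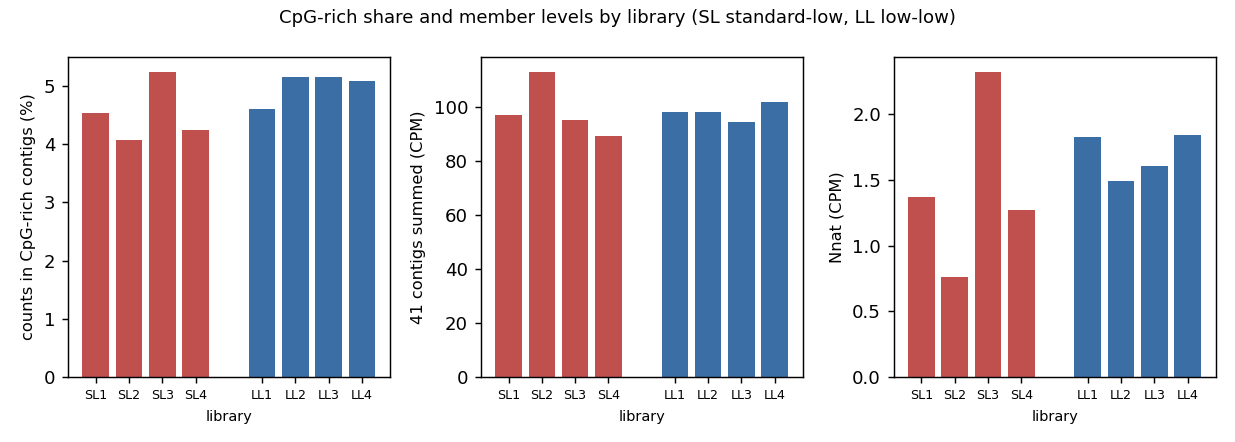
Bars for each library, standard-low (SL) at the left and low-low (LL) at the right, show the percent of counts in contigs with at least 4 CpG per 100 bases, the summed CPM of the 41 contigs and the CPM of the Nnat contig. SL2 is lowest for CpG-rich share (4.08%) and Nnat (0.759 CPM) and highest for the summed 41 contigs (113 CPM), while SL3 is highest for the CpG-rich share (5.24%) and Nnat (2.32 CPM).

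The Dlk1-Meg3 domain was covered by 8 contigs inside Dlk1, Meg3 or Rtl1 and by 28 outside them. Positions of control regions were not assigned, so it is not known whether any of these contigs lay in the control region of the domain. Before the lower edge of Meg3, none of them matched between positions 109522570 and 109532726 of chromosome 12. Dlk1 encodes a membrane protein with epidermal growth factor repeats that holds back fat cell formation in mouse. It summed to 7.36, 6.58, 8.87 and 6.08 CPM in standard-low, against 7.1, 6.39, 7.63 and 7.37 CPM in low-low. Standard-low 3 was highest and standard-low 4 lowest. The sum gave a log2 fold change of 0.02 ± 0.133 (SE), with a 95% interval of -0.26 to 0.3 and an edgeR adjusted p of 0.983.

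The most abundant Dlk1 contig, 2181608 at chr12:109459576-109460365, had 5.14, 4.3, 5.55 and 4.22 CPM in standard-low, against 4.66, 4.38, 5.78 and 5.15 CPM in low-low (log2 fold change -0.05 ± 0.166, SE; edgeR adjusted p = 0.99). The groups overlapped over nearly their whole range. Contig 3369209, printed above, had 1.54, 1.6, 1.41 and 0.845 CPM in standard-low, against 0.764, 0.892, 0.642 and 1.08 CPM in low-low. Standard-low 4 lay among the low-low libraries, and the other 3 lay above them. A log2 fold change of 0.67 ± 0.318 (SE; unadjusted p = 0.0382) did not pass after adjustment in edgeR (adjusted p = 0.868).

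Meg3, the maternally transcribed noncoding RNA of the domain, summed to 10.8, 12.1, 12.4 and 9.72 CPM in standard-low, against 10, 11.1, 11.2 and 13.7 CPM in low-low. The highest library was low-low 4 and the lowest standard-low 4. The log2 fold change was -0.03 ± 0.117 (SE), with a 95% interval of -0.28 to 0.21 and an edgeR adjusted p of 0.971. Contig 464010 at chr12:109549206-109550026 was both its most abundant and its lowest in p, with 3.51, 3.46, 4.72 and 4.06 CPM in standard-low and 4.28, 3.86, 4.58 and 5.3 CPM in low-low. Its groups overlapped, and the log2 fold change was -0.19 ± 0.175 (SE; edgeR adjusted p = 0.948).

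Meg3 contig 2316362, which lay 1245 to 2180 bases inside the lower edge of the gene, had 1.2, 2.36, 2.4 and 1.44 CPM in standard-low, against 1.07, 2.08, 1.69 and 2.61 CPM in low-low. Low and high libraries stood in both groups, and the log2 fold change was -0.01 ± 0.257 (SE; edgeR adjusted p = 1.0). The nearest contig outside the gene, 2338667 at 478 bases from that edge, had 0.685, 1.27, 1.82 and 1.77 CPM in standard-low, against 0.917, 1.26, 1.2 and 1.31 CPM in low-low. Its groups overlapped as well (log2 fold change 0.24 ± 0.297, SE; edgeR adjusted p = 0.959).

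Rtl1 is a retrotransposon-derived gene needed for the placenta in mouse, and an antisense transcript from the maternal chromosome overlaps it, so captured DNA there belongs to both. Its 1 contig of 1649 bases, at chr12:109593088-109594346, had 8.39, 8.69, 8.29 and 6.59 CPM in standard-low, against 8.33, 7.87, 6.82 and 8.6 CPM in low-low. In each group 3 of the 4 values lay between 7.87 and 8.69 CPM, and standard-low 4 was the lowest library. For Rtl1 the log2 fold change was 0.01 ± 0.125 (SE), with a 95% interval of -0.25 to 0.27 and an edgeR adjusted p of 0.991.

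Of the 36 contigs flanking the 9 genes, 14 had Dlk1 as their nearest gene, 14 Meg3, 5 Plagl1, 2 Sgce and 1 Peg3. None passed the edgeR test, and 2 had an unadjusted p below 0.05, a share near the 5.68% found over all contigs. Contig 4268223, at 17060 bases from Dlk1, had 1.28, 1.35, 1.49 and 2.37 CPM in standard-low, against 1.76, 2.97, 2.97 and 2.07 CPM in low-low (log2 fold change -0.59 ± 0.244, SE; unadjusted p = 0.0184, edgeR adjusted p = 0.831). Standard-low 4 lay inside the range of low-low. Contig 3884912, at 49693 bases, had 2.65, 3.54, 3.4 and 2.45 CPM in standard-low, against 2.98, 3.94, 4.82 and 3.99 CPM in low-low (log2 fold change -0.38 ± 0.191, SE; unadjusted p = 0.0492, edgeR adjusted p = 0.879). These 2 contigs were named after their values were seen.

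**Figure D3:**
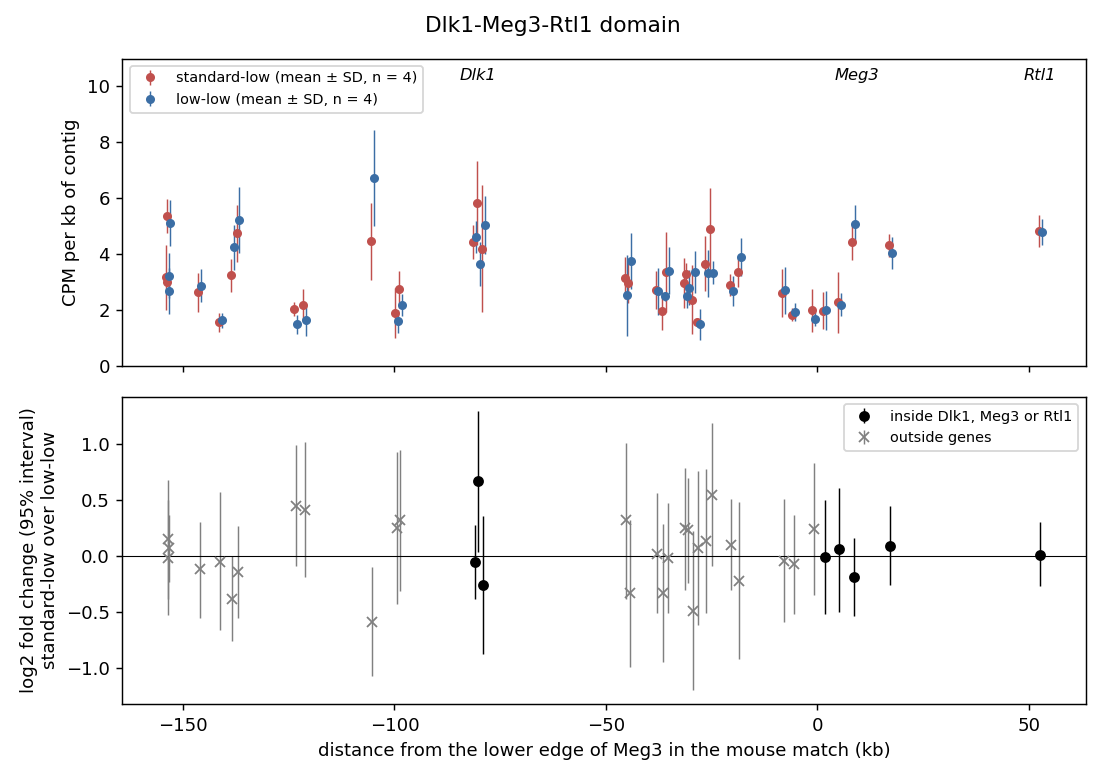
Contigs of the Dlk1-Meg3 domain by distance in kb from the lower edge of Meg3 in the mouse match. The upper panel gives CPM per kb of contig (mean ± SD, standard-low and low-low, n = 4 each) and the lower panel the log2 fold change of standard-low over low-low with its 95% interval. The interval of Dlk1 contig 3369209, at 0.67, is the only 1 of the 8 inside genes that excludes 0, and those of 2 flanking contigs, at -0.59 and -0.38, exclude it too.

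At the level of contigs, 0 of the 41 passed an edgeR adjusted p of 0.05, and DESeq2 and limma voom called 0 as well. Over all 548060 contigs, 0.0268% were called, 0.0203% as higher in standard-low and 0.00657% as lower. At an unadjusted p below 0.05, edgeR gave 5 of the 41 (12.2%), all 5 higher in standard-low, and the share over all contigs was 5.68%, made up of 2.93% higher in standard-low and 2.76% lower there. The 5 were the contigs of Sgce, Peg10, Peg3, Dlk1 and Plagl1 described above. DESeq2 gave 3 and limma voom 4 at the same level. Without standard-low 1, standard-low 4 or low-low 2, edgeR gave 3 of the 41, all among these 5. Without standard-low 2 edgeR gave 5, but not the same 5. Sgce contig 524506 (log2 fold change 0.46, edgeR unadjusted p = 0.101) and Dlk1 contig 3369209 (edgeR unadjusted p = 0.0962) dropped out. Mest contig 750185 came in as lower in standard-low (log2 fold change -0.44, edgeR unadjusted p = 0.0451, adjusted p = 0.921). The remaining contig that came in without standard-low 2 was not among those whose refits are listed here, and its direction is not given. Without standard-low 3 or low-low 3 edgeR gave 4 each, also not all among the 5 of the main test. Without standard-low 2 and 3 it gave 2, Peg3 contig 4108974 (edgeR unadjusted p = 0.0278) and Peg10 contig 4221429 (edgeR unadjusted p = 0.0103). With the CpG-rich share as covariate it also gave 2, Peg10 contig 4221429 (edgeR unadjusted p = 0.0127) and, as lower in standard-low and not one of the 5, Peg10 contig 4653381 (log2 fold change -0.32, edgeR unadjusted p = 0.0385). Neither passed after adjustment (adjusted p = 0.891 and 0.924). Without standard-low 2 and 3 the log2 fold changes were 0.41 for Sgce contig 524506, 0.98 for Peg10 contig 4221429 and 0.71 for Peg3 contig 4108974. They were 0.49 for Dlk1 contig 3369209 and 0.34 for Plagl1 contig 1309052, and edgeR called none of them.

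The 5 contigs had 1.75 to 2.98 CpG per 100 bases, with a median of 2.12 against 2.96 in the other 36 members. The Plagl1 contig, at 2.98, lay above that median of the others. Over all contigs the median was 2.16 and inside genes 2.26, so the 5 were not sparse in CpG for this table. Only the Peg3 and Peg10 contigs, at 1.75 and 1.89, lay under 2 CpG per 100 bases. Over the whole table, CpG-poor contigs held more of all counts in 3 of the 4 standard-low libraries than in any low-low library. Contigs with fewer than 2 CpG per 100 bases held 31.9%, 33.0%, 30.3% and 33.3% of counts in standard-low, against 31.5%, 29.9%, 30.2% and 30.0% in low-low. With the share of counts in CpG-rich contigs as covariate, the log2 fold changes of the 5 were 0.61 for Sgce contig 524506, 0.96 for Peg10 contig 4221429, 0.44 for Peg3 contig 4108974, 0.73 for Dlk1 contig 3369209 and 0.42 for Plagl1 contig 1309052. The values without the covariate were 0.74, 0.84, 0.65, 0.67 and 0.40, so that 2 were smaller with it and 3 larger, and the lowest adjusted p among the 5 was 0.891. Their mean counts were low, from 12.9 to 41.2 per library.

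The groups did not overlap in 4 of the 41 contigs, 3 higher and 1 lower in standard-low, against 3.24% over all contigs, 1.63% higher and 1.62% lower. The median log2 fold change was -0.01 over the 41, 0.0 over all contigs and -0.02 over the 125082 contigs inside genes. There were 19 contigs with a positive and 22 with a negative log2 fold change, and 49.7% of all contigs were negative.

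**Figure D4:**
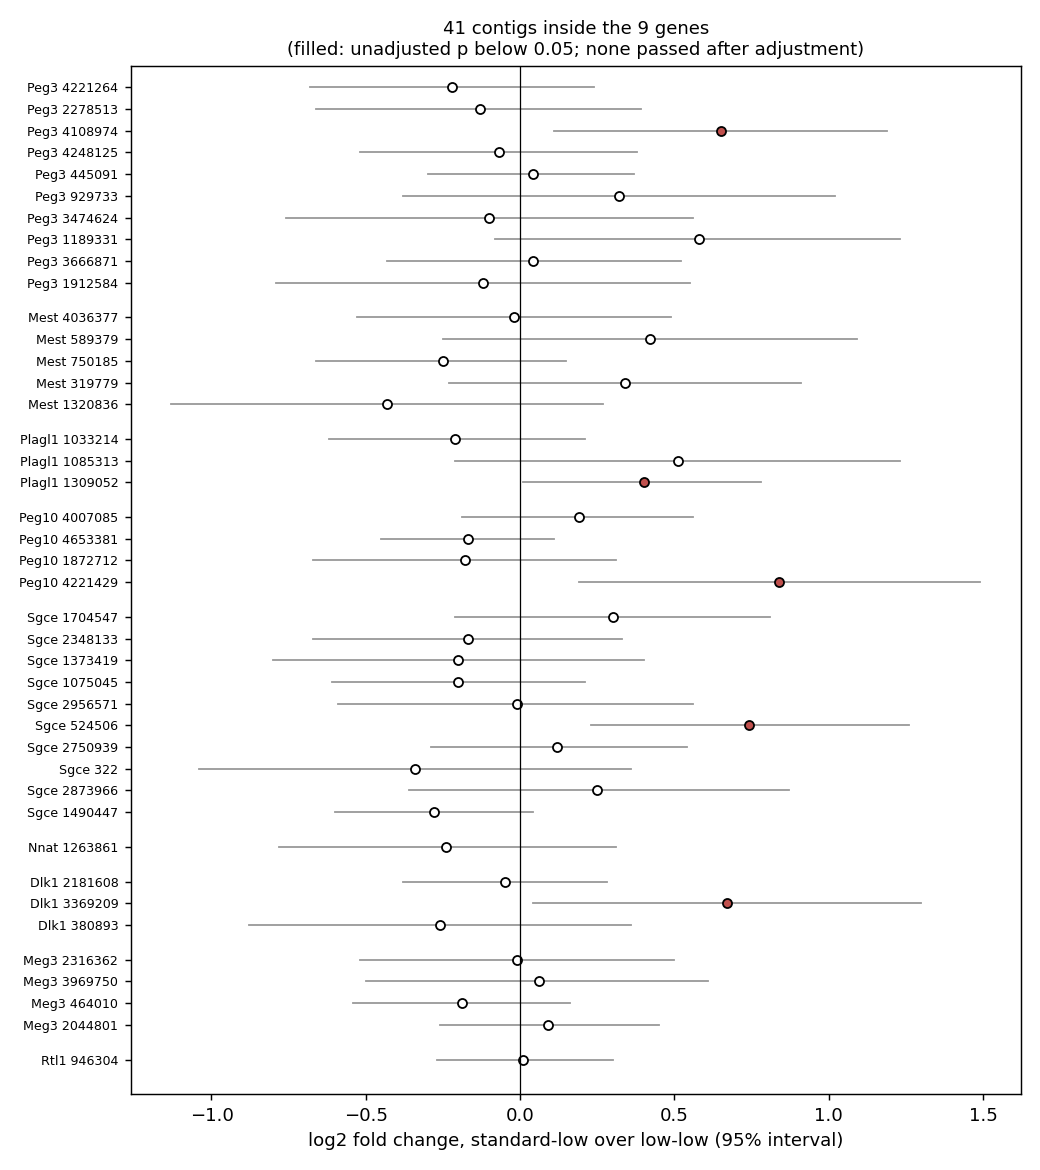
The log2 fold change of standard-low over low-low with its 95% interval for each of the 41 contigs, grouped by gene and ordered along the mouse match, with a filled symbol where the unadjusted p is below 0.05. The 5 filled symbols lie between 0.40 and 0.84, and none passed after adjustment.

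Apart from the comparison of groups, the 41 contigs were denser in CpG than the table as a whole, with a median of 2.88 CpG per 100 bases against 2.16 over all contigs and 2.26 inside genes. They were captured at a similar level per length, with a median of 3.36 CPM per kb against 3.48 over all contigs and 3.52 inside genes. Per CpG the median was 0.13 CPM, against 0.158 over all contigs and 0.152 inside genes. Per kb of contig, the sums over both groups ran from 2.68 CPM in Nnat, 2.7 in Mest, 3.06 in Sgce, 3.18 in Plagl1, 3.33 in Meg3 and 3.69 in Peg3 to 4.58 in Dlk1, 4.68 in Peg10 and 4.82 in Rtl1. The flanking contigs had a median of 2.78 CPM per kb at 2.17 CpG per 100 bases.

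Since capture per CpG falls as CpG density rises, each contig was set beside contigs inside genes of the same density. Nnat had the lowest capture per CpG of the members, 0.0446 CPM, against a median of 0.0661 and a lower quartile of 0.0528 among the 477 contigs inside genes with 6 to 7 CpG per 100 bases. Meg3 contig 2316362 had 0.0546 CPM per CpG and Plagl1 contig 1033214 had 0.0642. Contigs of their density, 3 to 4 CpG per 100 bases, had a median of 0.135 and a lower quartile of 0.107. Meg3 contig 3969750 stood at 0.0738 in the same density class. Sgce contig 2873966, which lay 49015 to 50008 bases inside the lower edge of its gene, had 0.0669, and Mest contig 319779 had 0.083. Their density was 1 to 2 CpG per 100 bases, where the median was 0.164 and the lower quartile 0.132. Mest contig 589379 had 0.0825, against a median of 0.156 and a lower quartile of 0.125 at 2 to 3 CpG per 100 bases. In all, 12 of the 41 members (29.3%) lay under the lower quartile of their class, close to the share that a lower quartile holds by its definition. They were 4 contigs of Sgce, 3 of Mest, 2 of Meg3 and 1 each of Nnat, Peg3 and Plagl1.

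Low capture per CpG was found both near gene edges and far from them. Contig 2338667, just outside the lower edge of Meg3, had 0.0512 CPM per CpG. Contig 1602182, at 559 bases from the upper edge of Peg3, had 0.0555 and a ratio of observed to expected CpG of 0.812. Not every contig near an edge was low. Peg3 contig 3666871, with YY1 cores, had 0.15 CPM per CpG, and Dlk1 contig 380893, 1230 to 1495 bases inside the upper edge, had 0.196. The other Peg3 contig with YY1 cores, 1912584, had 0.102 CPM per CpG. That was under the lower quartile of 0.132 at its density of 1 to 2 CpG per 100 bases. Of the flanking contigs 17 of 36 (47.2%) lay under the lower quartile of their density class. The classes hold only contigs inside genes, and the share among other contigs outside genes was not counted. The 47.2% therefore has no like reference and is not a trait shown for these flanks. The flanking contigs with the next lowest values lay farther out. Dlk1 contig 2686756, at 11049 bases from the gene, had 0.0645 CPM per CpG, Meg3 contig 3990256, at 28000 bases, 0.068, Dlk1 contig 2227913, at 34740 bases, 0.0739, and Dlk1 contig 230183, at 52764 bases, 0.0794. The highest members were Sgce contigs 322 and 1075045, at 0.227 and 0.206.

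**Figure D5:**
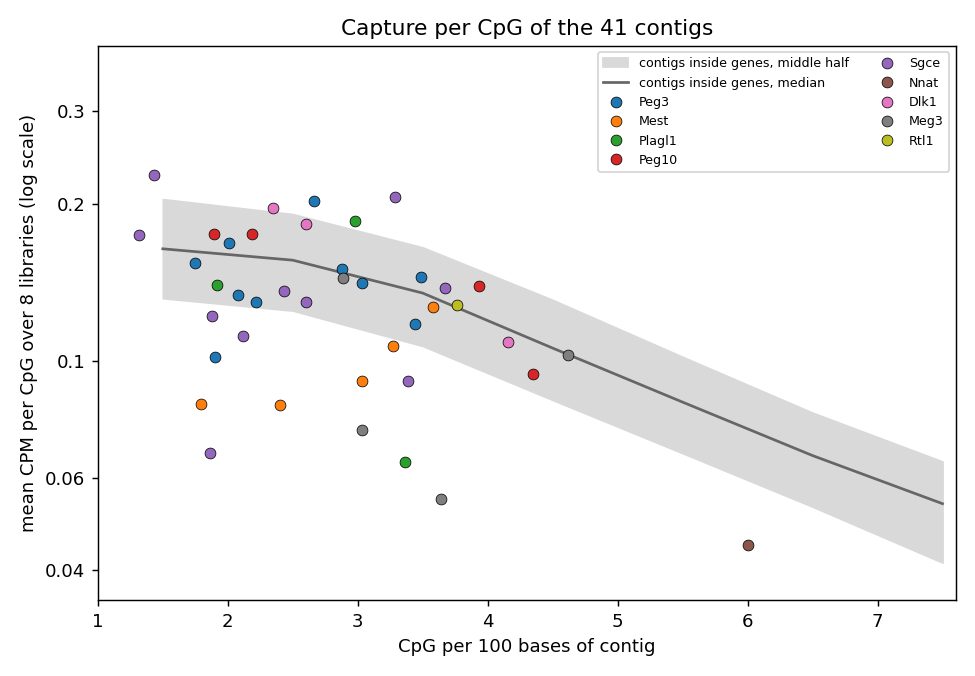
Mean CPM per CpG over the 8 libraries (log scale) against CpG per 100 bases for the 41 contigs, coloured by gene. The line and band give the median and the middle 50% of contigs inside genes by density class. Nnat lies lowest at 0.0446 CPM per CpG, and contigs of Meg3 (0.0546), Plagl1 (0.0642), Sgce (0.0669) and Mest (0.0825 and 0.083) lie well under the band at their density.

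The hexamer TGCCGC, which the imprint-keeping protein ZFP57 of mouse binds when it is methylated, was counted on both strands and found in 12 of the 41 contigs (29.3%). It was found in 11.1% of all contigs, in 14.7% when contigs of the same length class were weighted as the members are, and in 19.4% when contigs with the same number of CpG were. The 12 comprised 3 of Peg3, 3 of Sgce, 2 of Mest, 2 of Peg10, 1 of Nnat and 1 of Dlk1, and no copy overlapped a YY1 core. A match gives these letters only and says nothing of binding or methylation at the site.

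Neighbours of the same domains were also without calls. Of 33 neighbour genes, 23 had a contig inside, with 158 contigs in all. Of these contigs 0 were called by edgeR and 3 (1.9%) had an unadjusted p below 0.05, under the 5.68% over all contigs. Their sums were positive in 13 and negative in 10 genes, with a median log2 fold change of 0.02 against -0.03 over all gene sums. Begain, a neighbour of Dlk1, had the lowest adjusted p of the list (0.812), with 14.0, 7.0, 15.1 and 12 CPM in standard-low and 15.2, 12.6, 15.3 and 15.1 CPM in low-low. Standard-low 2 alone stood far below the rest.

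Of 13 genes from other paternally expressed domains, 12 were measured. Their 149 contigs gave 0 calls and 7 (4.7%) with an unadjusted p below 0.05, 5 higher and 2 lower in standard-low. Of 7 genes that keep imprints, 6 were measured, and 0 of their 39 contigs and 0 of their sums were called, with 2 contigs (5.13%) at an unadjusted p below 0.05. Uhrf1, which guides the maintenance methyltransferase to newly copied DNA, had 38.3, 26.5, 40.7 and 32.7 CPM in standard-low, against 40.0, 40.5, 40.8 and 38.2 CPM in low-low (log2 fold change -0.21 ± 0.0955, SE; unadjusted p = 0.042, edgeR adjusted p = 0.805). Standard-low 2 was the lowest library there.

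Contigs in genes that mark brain cell types also gave 0 calls. In DNA such lists show methylation of the marker genes and not how many cells of a type were present, so they do not check the tissue label. Oligodendrocyte markers summed to 59.6 to 81.5 CPM in standard-low and 76.6 to 80.4 CPM in low-low, with 4 of 30 contigs at an unadjusted p below 0.05, all lower in standard-low. Over all contigs 5.68% were at that level, 2.76% as lower. In the other marker lists it was 6 of 121 for neurons, 3 higher and 3 lower, 2 of 39 for microglia, both lower, 2 of 34 for endothelium, both higher, and 1 of 29 for astrocytes, higher. None of the 7 pituitary and 3 ependymal contigs reached it. Neuron markers summed to 240.0 to 267 CPM and 248 to 258 CPM in standard-low and low-low, microglia markers to 66.3 to 91.8 and 84.2 to 87.1, and astrocyte markers to 49.7 to 56.1 and 49.2 to 55.3. Endothelial markers summed to 62.2 to 70.2 CPM and 63.8 to 67.0 CPM, pituitary markers to 11.1 to 15.3 and 12 to 14.5, and ependymal markers to 4.3 to 10.7 and 6.6 to 8.11, in the same order. Olig1, Olig2, Gfap, P2ry12, Prl, Cldn5 and Rax had no contig inside them in this table. The part of these lists in the member values was not tested.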

How the data were processed

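The authors deposited whole-number read counts per assembled contig for 8 MethylMiner libraries, 4 standard-low and 4 low-low, with each contig's sequence, mouse match and nearest mouse gene. Sequences were handled with FastQC and BWA, per the submitters' processing notes. Versions, assembler, mouse build and the treatment of multiply mapped reads were not given in the sources used here. The smallest total over the 8 libraries was 81, which means that the deposited counts cover only contigs above some minimum. The header separates library names by spaces and the values by tabs, and columns were read in header order. Each library was placed in its group by its title.

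Gene names are those of the table and reflect mouse similarity only. Of the 9 symbols, 8 are in the sand rat RefSeq annotation. Of the 41 contigs, 8 aligned to mouse over less than 50% of their bases. Exon and intron positions were not analysed here, and the sequences of some contigs are not reported here.

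Counts were tested as deposited with edgeR 4.0.16 (R 4.3.3; TMM factors, glmQLFit, two-sided glmQLFTest, standard-low over low-low), with Benjamini-Hochberg adjusted p below 0.05 as the call. Requiring 10 counts on average removed 0 contigs. Gene sums add the counts of all contigs at distance 0 from a symbol and keep the library totals and factors of the contig table. The SE is the log2 fold change divided by the root of the F statistic, and 95% intervals use the t distribution with the fit's degrees of freedom. CPM are counts per 1000000 of the scaled library total, with SD over 4 libraries. The scripts were tested on simulated data with known folds.

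Contigs were named by a rule: in each gene the most abundant, the lowest in unadjusted p, and the 3 highest ratios of observed to expected CpG among members of at least 200 bases. Contigs printed for their motifs, their capture per CpG or their place beside a gene edge were chosen after their values were seen. The members and lists were chosen with earlier results of these data known. Alternatives were DESeq2 1.42.0, limma voom 3.58.1 with and without cyclic loess, other scalings and filters, a replicate block, longer mouse matches and leaving out each library. Leaving out standard-low 2 and 3 together, and the CpG-rich share as covariate, were added after seeing the data.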

Additional observations from a re-analysis of the deposited data

Results flagged for a closer look

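In 4 of the 100 groups of 4 libraries checked, counting each gene sum and each contig in each group, 1 library lay far from the other 3. Chance alone gives about 1 in 20. Peg10 contig 4653381 had 10.5 CPM in standard-low 2, with the other standard-low libraries between 8.28 and 8.45 CPM. Sgce contig 2750939 had 4.81 CPM in standard-low 2, with the others between 2.48 and 2.74 CPM. Sgce contig 1490447 had 4.22 CPM in standard-low 4, below the 4.72 to 4.79 CPM of the others, and all 4 lay below low-low. Dlk1 contig 380893 had 1.68 CPM in low-low 1, with the other low-low libraries between 1.11 and 1.2 CPM. None of these contigs was called between the groups by edgeR.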

How the results depend on the processing

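In each of the alternatives run, 0 member contigs and 0 member gene sums were called. Calls over the whole table moved more. Against 147 of 548060 contigs, edgeR called 90 with the CpG-rich share as covariate, limma voom 50, voom after cyclic loess 71, and DESeq2 32. At a mean of 20 counts edgeR called 65, but only 221973 contigs were tested there, so the 2 counts are not on the same base. Leaving out 1 library gave 68 (without low-low 2) to 207 (without standard-low 3), and 97 without standard-low 4. Against 1 gene sum called, voom called 0, voom after cyclic loess 0, and edgeR 31 without standard-low 2 and 3. Leaving out 1 library gave 0 to 27, with 27 without standard-low 3, 7 without standard-low 2 and 0 without any other library. With the replicate number as a block, 206 contigs and 2 gene sums were called and 0 members. Same-numbered libraries did not deviate together (correlations of -0.0141 to 0.0785 over 4 pairs), so the numbers are not taken as pairs.

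The 9 gene sums and 14 named contigs gave 417 refits, none called, with a lowest adjusted p of 0.35. The log2 fold change kept its sign throughout for 12 of these 23 values, the 5 contigs with the lowest p among them. Those 5 were picked for a low p in these same libraries, so their kept sign is no separate support. For the other 11 values the log2 fold change changed sign 45 times, never beyond 0.22 in size, and the cause was not tested. The log2 fold changes that crossed 0 were as follows. With the CpG-rich share as covariate they were -0.16 for the Peg3 sum, 0.09 for Nnat, 0.06 for Meg3, -0.21 for Peg3 contig 445091, 0.22 for Sgce contig 2956571 and 0.09 for Dlk1 contig 2181608. DESeq2 gave 0.01 for Mest, 0.01 for Peg10 and 0.02 for Sgce. Voom gave 0.05 for Sgce contig 2956571. Voom after cyclic loess gave 0.02 for Peg10, 0.02 for Sgce, 0.01 for Meg3, 0.04 for Sgce contig 2956571 and 0.03 for Dlk1 contig 2181608. Mouse matches of at least 100 bases gave 0.07 for Sgce. Without standard-low 2 and 3 Dlk1 had -0.08 and Rtl1 -0.08. For the 9 sums, whether or not they crossed 0, leaving out 1 library gave ranges of -0.03 to 0.16 for Peg3, -0.21 to 0.09 for Mest, 0.06 (without low-low 3) to 0.24 for Plagl1, -0.1 to 0.06 for Peg10, -0.14 to 0.04 for Sgce, -0.58 (without standard-low 3) to -0.03 (without standard-low 2) for Nnat, -0.09 to 0.1 for Dlk1, -0.09 to 0.06 for Meg3 and -0.05 to 0.1 for Rtl1. Ranges were -0.12 to 0.16 for Peg3 contig 445091, -0.24 to 0.11 for Sgce contig 2956571 and -0.13 to 0.02 for Dlk1 contig 2181608. The Nnat contig, at a mean of 19.5 counts, gave no value at a mean of 20.

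Depth limits single contigs most. Sgce contig 1704547, at the members' median of 21.5 counts per library, had a 95% interval of the fold of 0.864 to 1.75, and all gene sums but Nnat had narrower intervals. Sequence amount was not measured apart from methylation, and 8 libraries not stated to be separate animals set the error.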
